A study of Mus musculus with 12 samples.

Results

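The transcripts described here are 165 mouse microRNA precursors of the older, low-numbered part of the microRNA catalogue: the let-7 genes and microRNA genes with a number under 500. Of 295 such precursors with a probe set of their own on the array, these 165 lay above the median of the array in at least 3 of 12 arrays, and 130 did not. For a precursor with several probe sets (transcript clusters), the brightest was taken. The precursors of miR-15, miR-16, miR-103, miR-142, miR-146, miR-155, miR-221, miR-222 and miR-223 were left out by the rule, which removed 11 symbols. Clusters that also carry other genes were not used. They name 83 precursors of this class, among them Mir21a, Mir144 and Mir451a, and some of these may also have a cluster of their own. The members were therefore chosen by their measured levels, which are given as a description. The 7 members just inside the limit had mean log2 intensities of 3.51 to 3.89, and the 9 precursors just outside it had 3.47 to 3.80.

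RNA came from monocytes and macrophages separated magnetically from the bone marrow of 12 Rag2-/-γc-/- mice on a BALB/c background, which lack T, B and natural killer cells and therefore accept human cells. MEC1 is a human B cell line derived from a chronic lymphocytic leukemia, and it had been given intravenously to 6 of the mice. The 4 groups of 3 mice were MEC1 at 21 d and no MEC1 at that time, all aged 11 weeks, and MEC1 at 31 d and no MEC1 at that time, all aged 13 weeks. Every mouse gave 1 array, and with 3 arrays a group the precision is limited by their number.

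A microRNA is cut from a long primary transcript in the nucleus by Drosha with its partner Dgcr8, leaves the nucleus as a short hairpin through exportin 5, and is trimmed by Dicer to the short strand that guides an Argonaute protein to messenger RNAs. The bases near its 5′ end, the seed, pair with the target. Many precursors lie next to each other and are cut from 1 transcript, and many lie in introns of protein-coding genes. A probe set for a precursor reads total RNA and cannot tell the primary transcript from the hairpin, and the mature strand was not measured.

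Mature sequences from RefSeq (GRCm38.p6) were found for 113 of the 165 members, and those the results turn on are printed 5′ to 3′ with the seed, bases 2 to 8, in capitals. The first 3 come from 1 short transcript on chromosome 8, with hairpins at chr8:84208518-84208592, chr8:84208672-84208758 and chr8:84208815-84208921 on the plus strand. They are shown because this was the genomic cluster whose members were all lower with MEC1.
miR-23a-3p: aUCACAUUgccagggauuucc
miR-27a-3p: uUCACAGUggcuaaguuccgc
miR-24-3p: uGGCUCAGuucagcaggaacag

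The let-7 family follows, whose members share the seed GAGGUAG. These strands differ from each other only outside the seed.
let-7a-5p: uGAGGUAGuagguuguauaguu
let-7d-5p: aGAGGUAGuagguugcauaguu
let-7f-5p: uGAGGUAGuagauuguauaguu
let-7g-5p: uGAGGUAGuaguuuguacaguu
let-7i-5p: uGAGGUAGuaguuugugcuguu
let-7k: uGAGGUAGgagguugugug
miR-98-5p: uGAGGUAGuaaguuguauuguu

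Members of the miR-30 and miR-181 families are shown because precursors with the same seed did not all pass the test at 31 d, and miR-32 and miR-92a because both of their precursors did.
miR-30c-5p: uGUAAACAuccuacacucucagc
miR-30e-5p: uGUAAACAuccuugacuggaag
miR-181a-5p: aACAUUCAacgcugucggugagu
miR-181b-5p: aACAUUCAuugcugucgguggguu
miR-181d-5p: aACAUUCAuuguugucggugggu
miR-32-5p: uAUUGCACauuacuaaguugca
miR-92a-3p: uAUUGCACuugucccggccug

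The last set are single precursors with large changes at 31 d. The strands miR-365-3p and miR-450a-5p are each made from a pair of separate hairpins.
miR-421-5p: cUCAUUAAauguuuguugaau
miR-342-3p: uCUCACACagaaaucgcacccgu
miR-450a-5p: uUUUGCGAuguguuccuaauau
miR-193b-3p: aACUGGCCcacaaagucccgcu
miR-365-3p: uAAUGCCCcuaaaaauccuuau
miR-376b-3p: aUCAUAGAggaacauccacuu
miR-31-5p: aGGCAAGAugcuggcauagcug
miR-378c: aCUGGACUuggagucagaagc

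A difference between MEC1 and control arrays that was not specific to any gene touches every value that follows. The bacterial hybridisation controls were higher by 1.11 at 21 d and by 1.96 at 31 d on the log2 scale, and the array median was higher by 0.2 and 0.43 (exact permutation p = 0.1, 0.1, 0.2 and 0.1, two-sided, where 0.1 is the smallest p that 3 mice against 3 allow). The highest hybridisation-control level, 13.183, was that of MEC1 31 d replicate 3. Values are therefore given as deposited and, for many precursors whose call or direction differed, also after quantile normalization and after centring each array on its own median. Centring moved the median change of all tested clusters from 0.04 to -0.39 at 31 d and from 0.02 to -0.18 at 21 d.

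Of the 10 listed monocyte and macrophage genes, Csf1r, which encodes a growth factor receptor of macrophages, lay between the percentiles 95 and 97 of every array. Fcgr1, the lowest of them, lay between 67.9 and 89.1. The marrow fraction also carried other cells' transcripts. In control mice of 31 d the list mean of the neutrophil genes was 14.51 to 14.95. That of the monocyte and macrophage genes was 12.42 to 12.45. With MEC1 at 31 d, 7 of 7 tested erythroid genes fell (list mean 10.43 to 10.93 in control mice, 5.0 to 5.48 in MEC1 mice), 8 of 10 monocyte and macrophage genes fell, 5 of 10 neutrophil genes fell while 1 rose, and 4 of 5 B cell genes rose (4.23 to 4.33 against 4.98 to 5.55). At a mean level of 7 and above, where 47% of all clusters fell at that time, falls were seen in 5 of 5 erythroid, 8 of 9 monocyte and macrophage and 4 of 8 neutrophil genes. At a mean level below 5, where 34.7% of all clusters rose, 3 of 3 B cell genes rose. At levels from 5 to 7, where 14.3% of all clusters rose, 1 of 2 did. The B cell count was 2 of 5 with quantile normalization, with centring, where 1 also fell, and without MEC1 31 d replicate 3. Without that array 3 neutrophil genes rose and 3 fell. In such a bulk sample, fewer cells of a type and less RNA per cell cannot be told apart, and the part of these other cells and of RNA from the human cells in the precursors' changes was not tested.

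At 21 d few precursors changed. Of the 165 members 5 rose and 1 fell (adjusted p under 0.05 over all 37240 tested clusters, limma), where 4.34% of all tested clusters passed, 1.83% as rises and 2.51% as falls. The median change of the members was 0.24, against 0.02 over all clusters, and 30 members had an unadjusted p under 0.05. The groups did not overlap for 34 members that were higher with MEC1 and 4 that were lower, where the same held for 14.9% and 13.7% of all clusters. The 5 rises were those of Mirlet7i, Mir290b, Mir181b-2, Mir30c-1 and Mir451b, and the fall was that of Mir24-2. Mirlet7i and Mir181b-2 lay above the array median in 0 of the 6 control arrays and Mir451b in 2. These 3 rises therefore passed the filter through MEC1 arrays. The count of rises rested on single arrays: it was 2, 0 and 1 without control 21 d replicates 1, 2 and 3, 0, 1 and 13 without MEC1 21 d replicates 1, 2 and 3, 2 without control 31 d replicate 3 and 11 without MEC1 31 d replicate 3. With quantile normalization none of these 5 passed, with adjusted p of 0.0549 for Mir290b, 0.0568 for Mir181b-2 and Mir30c-1, 0.0612 for Mirlet7i and 0.0725 for Mir451b.

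At 31 d many precursors were higher with MEC1. Of the 165 members 64 rose and 4 fell, or 38.8% and 2.42%, where 43.8% of all tested clusters passed, 22.6% as rises and 21.1% as falls. The median change was 0.67, against 0.04 over all clusters. The groups did not overlap for 84 members that were higher and 4 that were lower, where 31.2% and 28.4% of all clusters did the same. After centring on the array median 32 members rose and 18 fell. The counts were 49 and 6 once the arrays were quantile normalized. The count of rises was 39 without MEC1 31 d replicate 3, which held the highest of the 3 MEC1 values for 42 of the 64 risen precursors, and 42 and 41 without control 31 d replicates 1 and 2. All 6 members that passed at 21 d passed in the same direction at 31 d, 62 passed at 31 d alone and 97 on neither day.

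**Figure D1:**
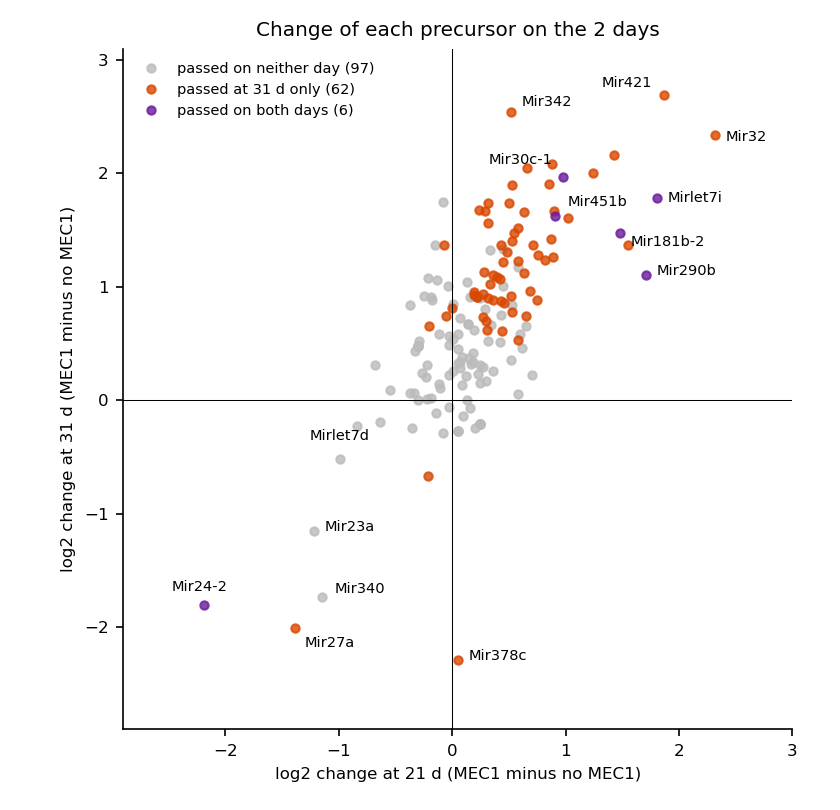
Log2 change (MEC1 minus no MEC1) of each of the 165 precursors at 21 d on the horizontal axis and at 31 d on the vertical axis, 1 point per precursor, coloured by the days on which it passed an adjusted p of 0.05 (limma). Most points lie above 0 at 31 d, Mir421 is highest at 2.69, and Mir24-2 and Mir27a lie at the lower left.

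The share of rises varied with the level of the probe sets. Among members with a mean level below 5, 42 of 101 (41.6%) rose, and 34.7% of all clusters at that level did. The shares were 14 of 39 (35.9%) against 14.3% at levels from 5 to 7, and 8 of 25 (32.0%) against 9.45% at 7 and above. In the deposited values 2 of 101, 1 of 39 and 1 of 25 members fell, where 2.91%, 27.6% and 47% of all clusters did. After centring the falls were 6, 10 and 2 and the rises 19, 8 and 5. Without MEC1 31 d replicate 3 the rises were 25, 10 and 4. The median change at 7 and above was 0.91 for the members, 0.57 without that array, and -0.79 for all clusters. Those 8 bright rises were Mir181d, Mir194-2, Mir30c-1, Mir483, Mir466f-4, Mir466j, Mir466o and Mir467h.

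**Figure D2:**
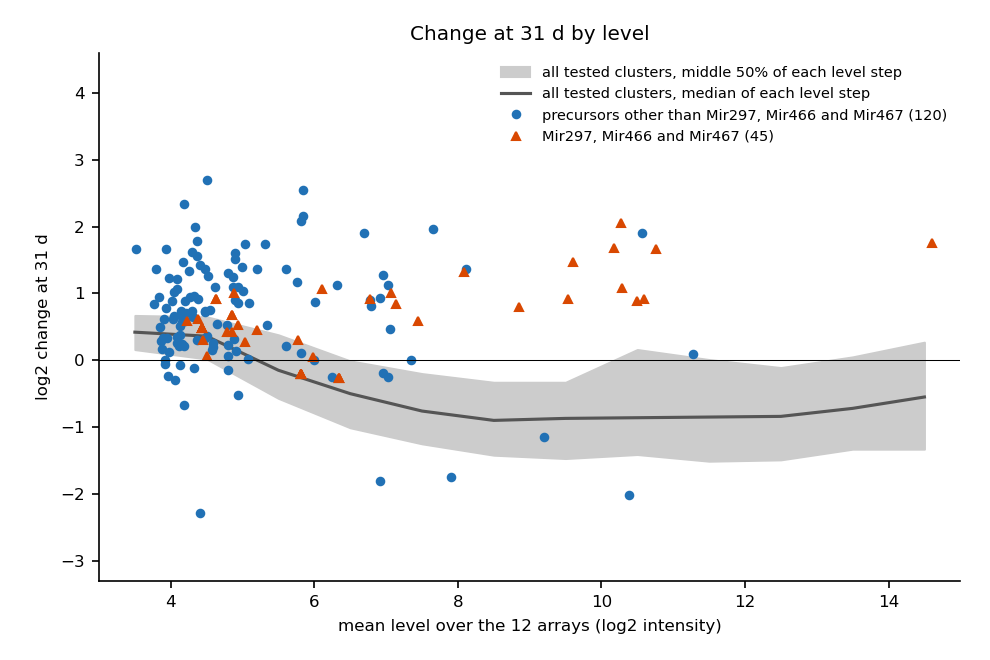
Log2 change at 31 d (MEC1 minus no MEC1) against the mean log2 intensity over the 12 arrays, with the 120 precursors other than Mir297, Mir466 and Mir467 as circles and those 45 as triangles. The grey band holds the middle 50% of all tested clusters in each level step and the line their median, which lies above 0 below a level of 5 and below 0 above it, while most precursors of level 7 and above lie above the band.

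The filter itself favours rises among the dim members. Of the 165, 22 lay above the array median in fewer than 3 of the 6 control arrays and so passed through MEC1 arrays. Of these, 18 rose at 31 d and 3 at 21 d. The other 143 gave 46 rises and 4 falls at 31 d, and 2 rises and 1 fall at 21 d. With no filter, 109 of all 295 precursors rose at 31 d (36.9%) and 5 fell, where 33.0% of all 65956 clusters rose and 12.6% fell. The share of rises then stood close to that of all clusters.

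Not all members are conserved, against the name of the class. The Mir297, Mir466 and Mir467 precursors are repeat-like genes of rodents, and they made up 45 of the 165, with 33 distinct profiles because identical copies share probe values. Of these 45, 6 rose at 31 d (median 0.58), and none did without MEC1 31 d replicate 3. Among the remaining 120 members 58 rose and 4 fell (median 0.74). Of all tested clusters 22.6% rose and 21.1% fell. After centring 2 of the 45 rose and 8 fell, and 30 of the 120 rose and 10 fell. With quantile normalization 10 of the 45 rose and 0 fell, and 39 of the 120 rose and 6 fell.

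The largest measured log2 change was that of Mir421, which lies in the non-coding X-linked gene Ftx beside Xist. It stood at 3.1, 3.85 and 3.51 in the control mice of 31 d and at 5.91, 5.88 and 6.73 in the MEC1 mice (n = 3 each). The control values lay near or below the medians of their arrays, 3.8 to 3.81, and not far above the low-GC background probes at 3.073 to 3.121, so that the size of the change depends on the background. The groups did not overlap. The log2 change was 2.69 (SE 0.53, adjusted p = 0.00357). The same limit holds at 31 d for Mir32, Mirlet7i, Mirlet7g, Mir181b-2, Mir376b and Mir451b, whose control values also lay below the array medians, and no fold is given for these. At 21 d the values were 3.22, 3.28 and 3.19 against 6.12, 5.61 and 3.57, a difference of 1.87 that did not pass (adjusted p = 0.0716), with MEC1 replicate 3 close to the controls.

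Mir342, encoded in an intron of the actin regulator Evl and known from myeloid differentiation, stood at 4.46, 4.85 and 4.54 without MEC1 and at 6.96, 6.49 and 8.01 with it at 31 d. It rose by 2.54, or 5.8-fold (SE 0.513, adjusted p = 0.00401). At 21 d the groups overlapped, since control replicate 1 stood at 6.87 and the MEC1 mice at 5.83 to 6.31.

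Mir32 shares its seed with miR-92a. Its level was 2.97, 3.06 and 3.03 in control mice and 3.19, 6.68 and 6.20 in MEC1 mice at 31 d, so that 1 MEC1 mouse stood at the control level. The change of 2.34 passed (SE 0.748, adjusted p = 0.0282), but not with quantile normalization (adjusted p = 0.052), not after centring (adjusted p = 0.051) and not without any 1 of the control 31 d arrays or MEC1 31 d replicates 2 or 3 (adjusted p of 0.0644, 0.0675, 0.0657, 0.0968 and 0.103). At 21 d the MEC1 mice were also above all control mice, at 6.05, 5.65 and 4.31 against 2.75, 3.12 and 3.19 (change 2.32, adjusted p = 0.103). Mir92-2, which gives miR-92a with the same seed, rose by 1.52 at 31 d (SE 0.481, adjusted p = 0.027), a call that did not hold with quantile normalization or centring (adjusted p = 0.065 and 0.0587).

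Among the other large rises at 31 d, Mir450-2 went from 5.14, 4.96 and 4.51 to 6.78, 6.15 and 8.16 (change 2.16, SE 0.419, adjusted p = 0.0033). The neighbouring hairpin Mir450-1, which gives the same strand miR-450a-5p, changed by 0.51 and did not pass (adjusted p = 0.191). Mir320, known as a precursor that is made without Drosha, went from 6.33, 5.42 and 6.37 to 8.25, 7.27 and 8.30 (change 1.90, SE 0.369, adjusted p = 0.00331). Mir483, which lies in the growth factor gene Igf2, went from 9.96, 9.74 and 9.71 to 11.72, 11.60 and 11.81 (change 1.91, SE 0.298, adjusted p = 0.00123). In none of these 3 rises did the groups overlap. Mir31, a microRNA studied in tumour invasion, was among the tightest, at 4.70, 4.81 and 4.69 against 6.34, 6.4 and 6.69 (change 1.74, or 3.35-fold, SE 0.212, adjusted p = 0.000506).

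Mir466o stood apart among the repeat-like precursors, with 8.55, 9.52 and 9.28 in control mice and 10.15, 11.28 and 12.06 in MEC1 mice at 31 d. Its rise of 2.05 (SE 0.566, adjusted p = 0.0157) did not pass without control 31 d replicate 1 or MEC1 31 d replicate 3 (adjusted p = 0.0544 and 0.063), and the chromosome that the array gives for its cluster differs from that of RefSeq, as it does for 5 members in all. The rises of Mir421, Mir342, Mir450-2, Mir193b, Mir376b, Mir30c-1, Mir483, Mir320, Mirlet7i and Mir31 held when any 1 array was left out, with quantile normalization and after centring. None of them held when the hybridisation-control level was a covariate, and the changes of Mir193b, Mir376b, Mir450-2 and Mirlet7i then turned to -0.97, -0.86, -0.68 and -0.44.

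**Figure D3:**
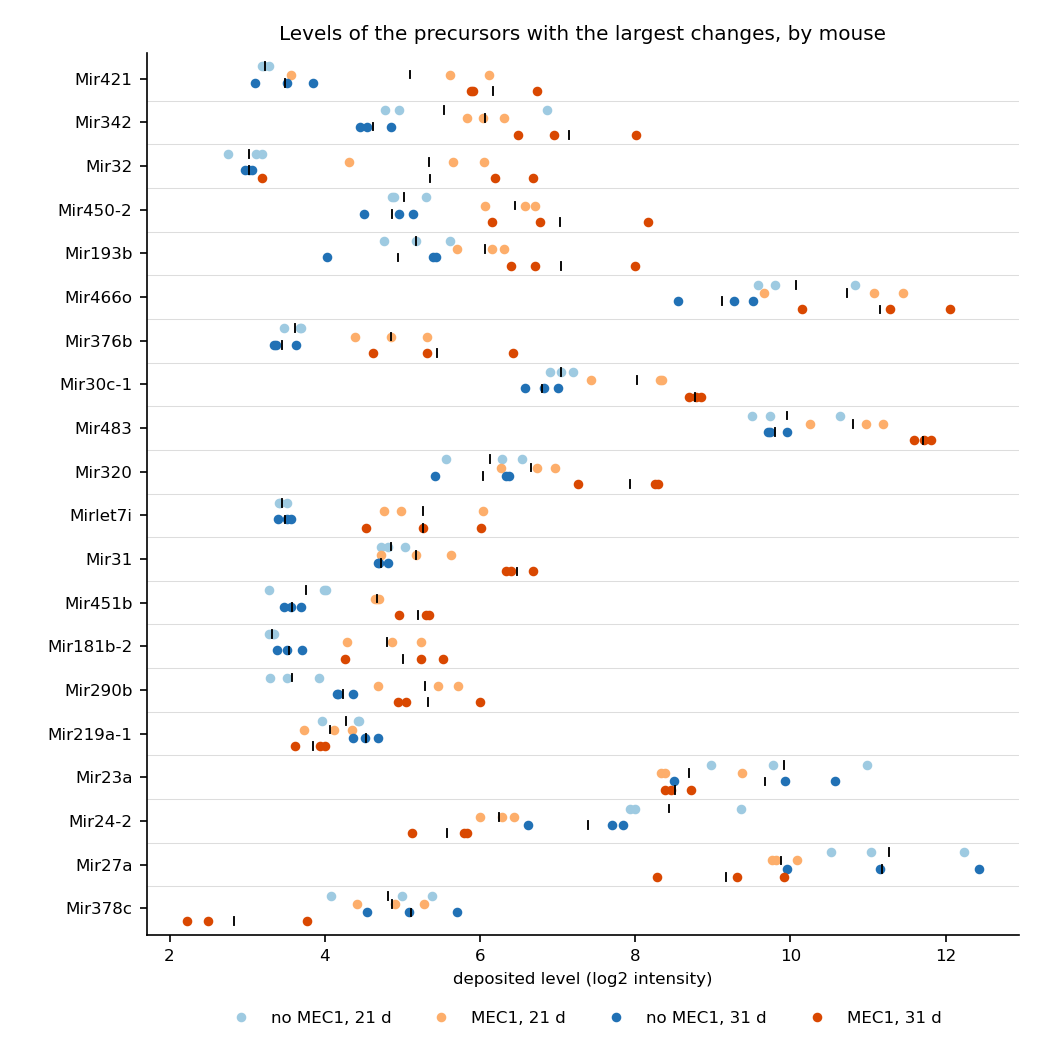
Deposited log2 intensity of the precursors with the largest changes in each of the 12 mice, 1 point per mouse and 1 row pair per day, with the group mean as a short vertical line. The MEC1 mice of 31 d lie to the right of their controls for the rising precursors, and to the left for Mir378c, Mir27a, Mir24-2 and Mir219a-1, while 1 MEC1 mouse of 31 d sits beside the controls for Mir32.

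The let-7 family, which restrains growth-promoting genes such as those of the Ras and Hmga2 proteins, had 8 members. At 31 d 5 of them rose and none fell, with a median change of 1.2, where 22.6% of all tested clusters rose. Of these 5, Mirlet7i and Mirlet7g lay above the array median in 0 of the 6 control arrays and Mir7k in 2, so that they passed the filter through MEC1 arrays. Counts were 2 rises with quantile normalization, 1 rise and 1 fall after centring, and 4 rises without MEC1 31 d replicate 3, and the median was -0.16 with no call when the hybridisation-control level was a covariate. Mirlet7i was the member that also passed at 21 d: its control mice stood at 3.41, 3.42 and 3.51 and its MEC1 mice at 6.04, 4.98 and 4.76 (change 1.81, SE 0.371, adjusted p = 0.0285). At 31 d they stood at 3.56, 3.51 and 3.40 against 5.26, 4.53 and 6.01 (change 1.78, adjusted p = 0.0046). On both days all MEC1 mice were above all control mice, whose values lay below the array median.

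Mirlet7a-1 rose by 1.37 (adjusted p = 0.0112), Mirlet7g by 1.37 (adjusted p = 0.0237), Mirlet7a-2 by 0.96 (adjusted p = 0.0132) and Mir7k by 1.07 (adjusted p = 0.0285) at 31 d. With quantile normalization and after centring the calls of Mirlet7g (adjusted p = 0.0952 and 0.072), Mirlet7a-2 (0.113 and 0.116) and Mir7k (0.115 and 0.12) were lost, and that of Mirlet7a-1 was lost after centring (0.0651). The control level of Mirlet7g, at 3.03, 3.04 and 3.18, lay under the array median, and 1 MEC1 mouse at 5.69 stood above the others at 3.63 and 4.05. Neither Mir98 nor Mirlet7f-1 passed, at 1.04 and 1.33 (adjusted p = 0.0636 and 0.122). Mirlet7d was the exception in sign, with changes of -0.64 at 21 d (adjusted p = 0.0501) and -0.19 at 31 d (adjusted p = 0.334). After centring it passed as a fall on both days (adjusted p = 0.0269 and 0.0142), while with quantile normalization its change at 31 d was 0.28.

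Mirlet7d, Mirlet7f-1 and Mirlet7a-1 lie within a few kilobases on chromosome 13 and are known as 1 transcript. At 31 d Mirlet7d stood at 6.59, 6.80 and 6.54 in control mice and 6.68, 6.21 and 6.46 in MEC1 mice, with overlap, and Mirlet7a-1 at 5.30, 4.30 and 4.62 against 6.14, 6.35 and 5.83, without. The difference between neighbours was not tested.

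In the miR-30 family, Mir30c-1 was the clearest rise on both days. It stood at 7.05, 7.20 and 6.90 against 8.32, 8.35 and 7.43 at 21 d (change 0.98, SE 0.234, adjusted p = 0.043), and at 6.82, 6.58 and 7.0 against 8.69, 8.78 and 8.85 at 31 d (change 1.97, or 3.93-fold, adjusted p = 0.000476). The call at 31 d held in each fit that left out 1 array, and the call at 21 d was lost in 10 of those 12 fits and after centring (adjusted p = 0.0552). Mir30e, which lies 3072 bases away in the same gene, stood at 4.66, 6.87 and 6.18 against 6.43, 5.41 and 5.86 at 31 d, with overlap and a log2 change of 0.00 (SE 0.672, adjusted p = 0.997). Mir30d rose by 0.81 (adjusted p = 0.0145; 0.197 after centring) and its neighbour Mir30b changed by 0.20 (adjusted p = 0.584).

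The miR-181 family is known from lymphoid development. Mir181b-2 went from 3.33, 3.34 and 3.28 to 4.87, 5.24 and 4.29 at 21 d (change 1.48, SE 0.313, adjusted p = 0.0312) and from 3.71, 3.52 and 3.38 to 4.26, 5.24 and 5.53 at 31 d (change 1.47, adjusted p = 0.00496). All MEC1 mice were above all control mice, and the control values lay below the array median. Its neighbour Mir181a-2 had a change of 0.58 at 31 d with overlapping groups (adjusted p = 0.18), while Mir181d, which lies in another cluster of the genome, rose by 1.37 (adjusted p = 0.00613). In the miR-29 pair, which targets DNA methyltransferases, Mir29a rose by 1.42 (adjusted p = 0.012) and Mir29b-1, 363 bases away, changed by -0.25 (adjusted p = 0.562). Mir29a lay above the array median in 2 of the 6 control arrays, so that it passed the filter through MEC1 arrays. The difference between these neighbours was not tested.

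Mir486 lies in Ank1, the gene of a red cell membrane protein, and stood at 4.45, 4.49 and 4.6 in control mice and 5.25, 5.10 and 5.90 in MEC1 mice at 31 d, a rise of 0.90 (SE 0.219, adjusted p = 0.00898). Ank1 itself fell by 4.77 (SE 0.696, adjusted p = 0.000911), from 9.29, 10.39 and 9.99 to 4.81, 5.03 and 5.53. Mir451b is annotated on the strand opposite the red cell microRNA miR-451a, and rose by 0.91 at 21 d (adjusted p = 0.0338; 0.0574 after centring) and by 1.62 at 31 d (SE 0.2, adjusted p = 0.000539). Its values at 31 d were 3.47, 3.57 and 3.69 against 4.96, 5.30 and 5.34, with no overlap.

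Mir290b is likewise annotated opposite another precursor, Mir290a of the embryonic stem cell cluster on chromosome 7. At 21 d it went from 3.29, 3.52 and 3.92 to 5.72, 4.68 and 5.46 (change 1.71, SE 0.322, adjusted p = 0.0211), and at 31 d from 4.36, 4.16 and 4.17 to 5.05, 6.00 and 4.94 (change 1.10, adjusted p = 0.0197). The later call did not hold with quantile normalization or centring (adjusted p = 0.108 and 0.134). Mir290a changed by -0.20 at 21 d and rose by 0.65 at 31 d (adjusted p = 0.0457; 0.458 with quantile normalization and 0.462 after centring).

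Of the 4 falls at 31 d, 2 lay in 1 cluster. The Mir23a, Mir27a and Mir24-2 hairpins of chromosome 8 are known as a myeloid cluster that restrains B cell development. All 3 were lower with MEC1 on both days, with medians of -1.39 and -1.81, and Mir24-2 fell on both. At 21 d it stood at 9.37, 7.94 and 8.0 in control mice and 6.00, 6.29 and 6.44 in MEC1 mice, a fall of 2.19, or 4.57-fold (SE 0.415, adjusted p = 0.0218). At 31 d it stood at 6.62, 7.85 and 7.70 against 5.83, 5.79 and 5.13, a fall of 1.81, or 3.5-fold (adjusted p = 0.00711). Neither day showed overlap. The call at 21 d was lost without MEC1 21 d replicates 1 or 2 (adjusted p = 0.0821 and 0.0701), and that at 31 d was kept in each fit that left out 1 array.

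Mir27a fell by 2.01 at 31 d (SE 0.618, adjusted p = 0.024), from 9.96, 12.43 and 11.15 to 9.31, 9.92 and 8.28, where the lowest control lay just above the highest MEC1 mouse. The change was -1.43 with quantile normalization (adjusted p = 0.0967), and the call was also lost without control 31 d replicates 2 or 3 or MEC1 31 d replicate 3 (adjusted p = 0.0904, 0.0573 and 0.0937). Mir23a had changes of -1.22 and -1.15 with overlapping groups (adjusted p = 0.225 and 0.119), and passed at 31 d after centring (-1.58, adjusted p = 0.0394). All clusters of level 7 and above had a median of -0.79 at that time, so lower values at this level were common. Mir24-2 belonged to the levels from 5 to 7, where the median of all clusters was -0.3 and 27.6% fell. The direction of all 3 was the same as deposited, with quantile normalization and after centring, and turned for all 3 at 31 d when the hybridisation-control level was a covariate (median 0.33, none passing).

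Mir378c lay outside this cluster and had the most negative measured change. It went from 5.09, 5.71 and 4.54 to 2.22, 2.49 and 3.77 at 31 d (change -2.29, SE 0.464, adjusted p = 0.00408) and had a change of 0.05 at 21 d (adjusted p = 0.956). In 2 of the 3 MEC1 mice the value lay below the low-GC background of the MEC1 arrays of that day, 3.344 to 3.656, so no fold is given. The array places its cluster on chromosome 3 and RefSeq the gene on chromosome 14, so its identity is uncertain. Mir219a-1 fell by 0.67 (adjusted p = 0.0222), a call lost without control 31 d replicates 1 or 3 or MEC1 31 d replicate 3 (adjusted p = 0.0719, 0.0556 and 0.0778).

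By genomic position, 78 members fell into 17 clusters of at least 2 neighbours with starts within 10 kb of the next. As deposited, the median at 31 d was below 0 in 1 of these, the chromosome 8 cluster, and between 0.20 and 1.65 in the others. Centring lowers each change at 31 d by 0.43. The medians of the Mir470 to Mir465 cluster (-0.12) and of Mir362 and Mir188 (0.20 as deposited) then also lay below 0. Some members, such as Mir34c and Mir181b-2, lay above the array median in 0 of the 6 control arrays and passed the filter through MEC1 arrays. Mir193b and Mir365-1 on chromosome 16 was the cluster with the highest median, and both members rose. Mir193b, known as a suppressor of growth genes, went from 5.4, 4.03 and 5.43 to 6.71, 6.4 and 8.0 (change 2.08, SE 0.461, adjusted p = 0.00597), and Mir365-1 from 3.46, 3.20 and 3.87 to 4.85, 4.30 and 5.05 (change 1.22, adjusted p = 0.00387). The second copy Mir365-2 on chromosome 11 rose by 1.74 (adjusted p = 0.00605). All 3 precursors were without overlap between the groups.

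**Figure D4:**
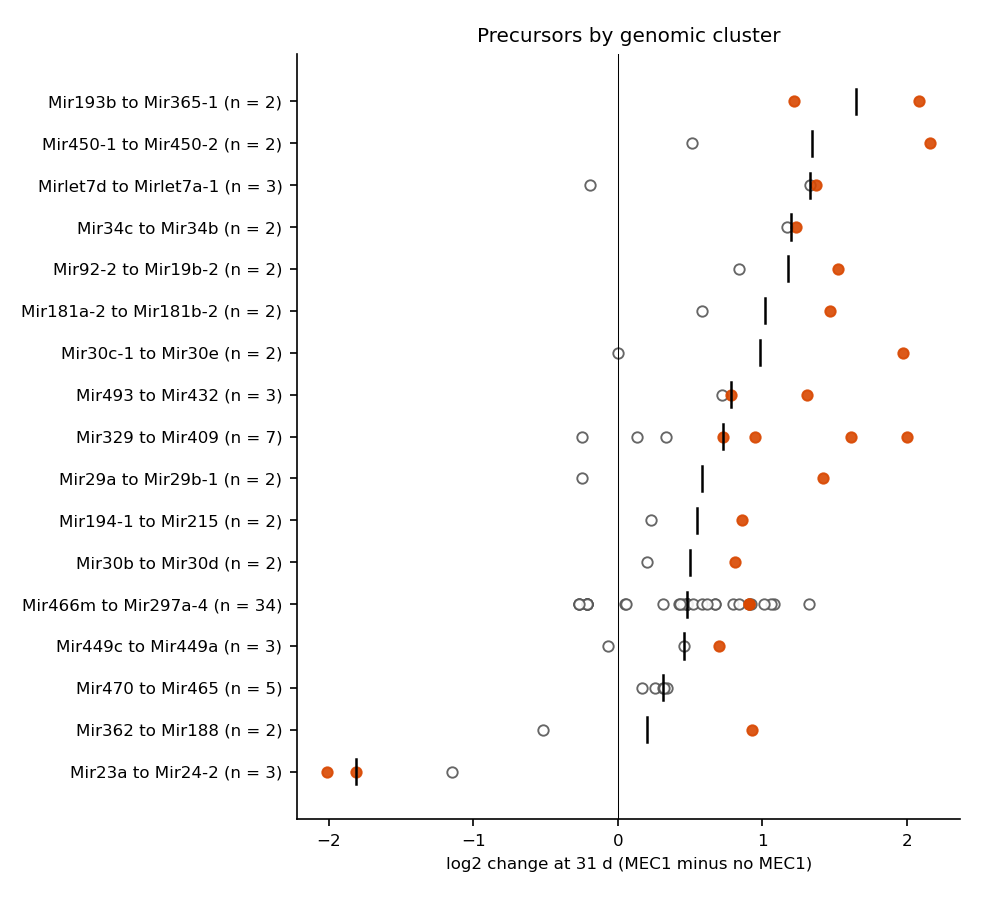
Log2 change at 31 d (MEC1 minus no MEC1) of the 78 precursors in 17 genomic clusters, 1 point per precursor, filled where it passed an adjusted p of 0.05 (limma) and open where it did not, with the cluster's median as a short vertical line. The Mir23a to Mir24-2 cluster lies below 0 and the other medians above it as deposited. After centring, which is not drawn, the Mir470 to Mir465 members and the median of Mir362 to Mir188 lie below 0.

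The imprinted Dlk1-Dio3 region of chromosome 12, whose microRNAs come from the maternal chromosome, gave 2 clusters. In the one from Mir329 to Mir409, 4 of 7 rose (median 0.73): Mir376b by 2.00 (SE 0.38, adjusted p = 0.00295), Mir329 by 1.61 (adjusted p = 0.00179), Mir453 by 0.95 and Mir496a by 0.73. Mir376b stood at 3.35, 3.63 and 3.37 against 4.62, 5.32 and 6.42. Mir494 changed by -0.25 (adjusted p = 0.491). In the cluster from Mir493 to Mir432, 2 of 3 rose (median 0.78), Mir432 by 1.31 (adjusted p = 0.00774) and Mir493 by 0.78 (adjusted p = 0.0202; 0.222 with quantile normalization and 0.2 after centring). Over all tested clusters 22.6% rose at that time. Mir376b lay above the array median in 0 of the 6 control arrays and Mir453 and Mir493 in 1 each, so that they passed the filter through MEC1 arrays. With quantile normalization and after centring the 7-member cluster had medians of 0.34 and 0.30 with 2 rises each, those of Mir376b and Mir329.

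The largest cluster, 34 repeat-like precursors in the intron of Sfmbt2 on chromosome 2, had 22 distinct profiles. The 2 that rose at 31 d, Mir466c-1 and Mir466c-2, share the same values, and the median was 0.48. After centring none rose, 8 fell and the median was 0.05, and without MEC1 31 d replicate 3 none rose. Sfmbt2 had a change of 0.28 (adjusted p = 0.192). The 5 X-linked members from Mir470 to Mir465 changed by 0.17 to 0.34, with none passing, and all 5 turned negative after centring. On chromosome 13, Mir449a rose by 0.70 (adjusted p = 0.0376, but 0.262 with quantile normalization and 0.305 after centring). Mir449b and Mir449c did not pass as deposited, and Mir449b passed as a rise with quantile normalization (change 1.05, adjusted p = 0.0315).

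Of the members, 100 lie in the span of another gene, leaving out genes known to run on the opposite strand, and 67 of these have a host that was tested. Leaving out Sfmbt2, 33 precursors made 34 pairs with 32 hosts, since Mir486 lies in both Ank1 and the predicted gene Gm15816. At 31 d the precursor rose in 12 pairs, and in 8 of them the host fell, in 4 it did not pass and in none did it rise. Over all tested clusters 22.6% rose and 21.1% fell at that time. The precursor's change was above that of its host in 26 of 34 pairs, and 17 hosts fell while 3 rose. Strand was compared, and was the same, in 21 of these pairs. Among them the precursor lay above its host in 17, and 13 hosts fell while 0 rose. The pairs were not matched for level. All clusters had a median change of 0.38 at a mean level below 5 and of -0.79 at 7 and above, so these counts are a description only. With quantile normalization the precursor rose in 11 of the 34 pairs, of which 3 had a fallen and 1 a risen host. After centring the counts were 6 and 6, and without MEC1 31 d replicate 3 they were 8 and 3. The count of pairs in which the precursor lay above its host was 26 with quantile normalization and without MEC1 31 d replicate 3; centring cannot change it, since it moves both alike.

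The pair of Mir30c-1 and Nfyc, a subunit of the CCAAT-binding factor, is an example on the same strand. Nfyc stood at 11.06, 11.05 and 10.84 in control mice and 10.08, 10.35 and 9.94 in MEC1 mice at 31 d, a fall of 0.86 (adjusted p = 0.00665), while Mir30c-1 rose. Ftx, which holds Mir421, fell by 0.63 (adjusted p = 0.0237), Tmem245, which holds Mir32, by 0.69 (adjusted p = 0.00546), and Wdr82, which holds Mirlet7g, by 0.93 (adjusted p = 0.0108). Evl, which holds Mir342, had a change of -0.14 (adjusted p = 0.435). With quantile normalization the changes of Nfyc, Ftx, Tmem245 and Wdr82 kept their sign and did not pass (adjusted p = 0.311, 0.136, 0.435 and 0.477), and that of Evl was 0.40 (adjusted p = 0.0852). Ftx did not pass without MEC1 31 d replicate 3 either (adjusted p = 0.0549). Differences between a precursor and its host were not tested, and 47% of all clusters at level 7 and above fell.

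**Figure D5:**
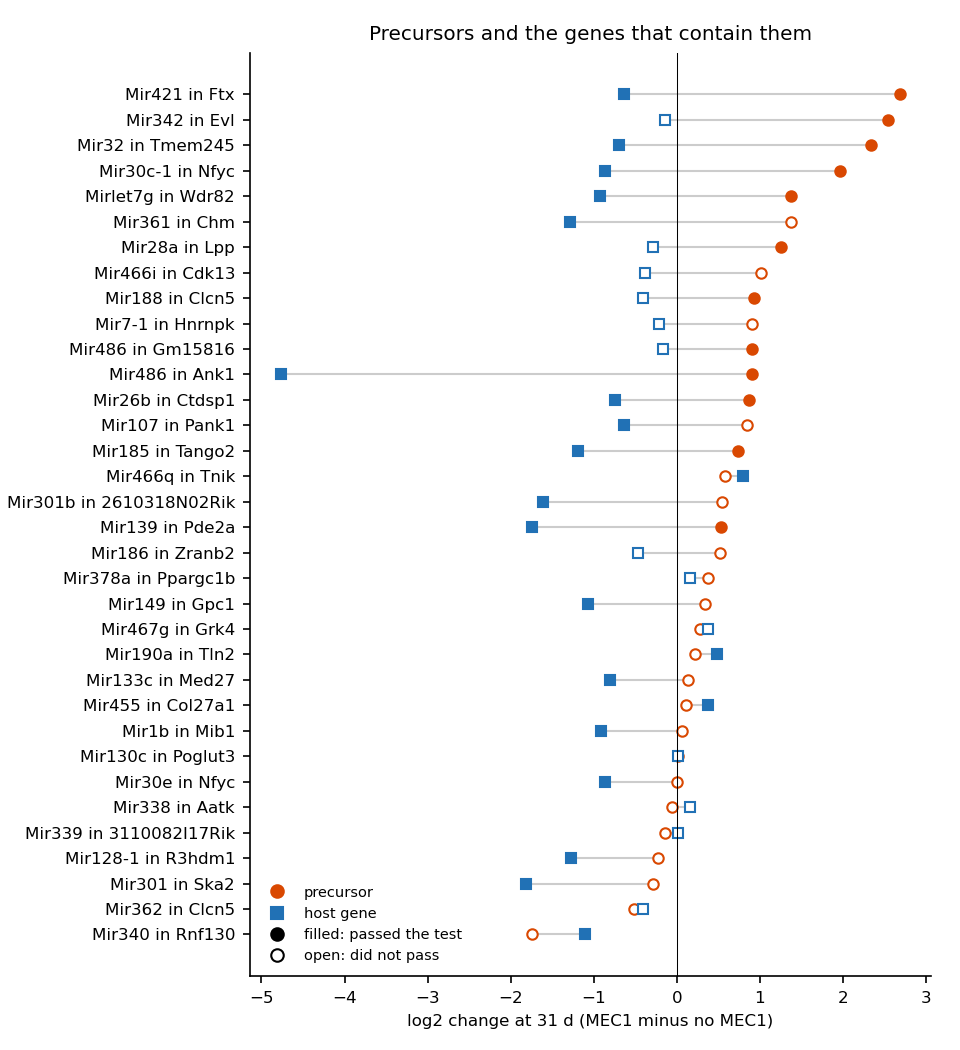
Log2 change at 31 d (MEC1 minus no MEC1) of 34 pairs of a precursor (circle) and the gene that contains it (square), joined by a line, filled where the change passed an adjusted p of 0.05 as deposited and open where it did not. The circle lies to the right of the square in 26 of 34 pairs, a count that was the same with quantile normalization, and the widest gap is that of Mir486 and Ank1.

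Of 24 tested genes of the microRNA pathway 2 fell at 21 d, the tailing enzymes Tut4 by 0.76 (adjusted p = 0.169 with quantile normalization) and Tut7 by 1.47, and none rose. At 31 d 13 fell, 11 did not pass and none rose, with a median of -0.74. At a mean level of 7 and above 11 of 15 fell, where 47% of all clusters did, and at levels from 5 to 7 2 of 9 fell, where 27.6% of all clusters did. The median of all clusters at 7 and above was -0.79. All 4 tested genes of the nuclear step fell: Drosha by 1.36 (adjusted p = 0.00237), its helicase partner Ddx17 by 0.92, and the cofactors Srsf3 and Khsrp by 1.44 and 1.69. Drosha stood at 9.37, 9.02 and 9.24 in control mice and 7.79, 7.93 and 7.82 in MEC1 mice. Xpo5, which encodes exportin 5, fell by 1.87 (adjusted p = 0.00445), Dicer1 by 1.65 (adjusted p = 0.000559) and the slicer gene Ago2 by 2.82 (adjusted p = 0.000618). Among genes that tail or degrade precursors, 5 of 8 fell, with Tut7 at -2.72 and Tsn, a subunit of the C3PO nuclease, at -2.01. After centring 17 of 24 fell. With quantile normalization 11 fell and 4 rose, and Drosha, Ddx17, Srsf3, Khsrp, Xpo5, Dicer1, Ago2, Tut7 and Tsn all still passed as falls. The 4 rises were those of 3 of the 7 Argonaute and silencing genes and 1 of the 2 export genes. As deposited, 2 of those 7 Argonaute and silencing genes fell (median -0.05). When the hybridisation-control level was a covariate none of the 24 passed, and the change of Srsf3 turned to 0.58.

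No member passed the test of a difference between the effects at 21 d and 31 d (limma), where 0.00269% of all clusters did. An unadjusted p under 0.05 was reached by 19 members, and array weights gave 4 calls. In control mice no member passed between 31 d and 21 d, where 0.00806% of all clusters did, and 13 had an unadjusted p under 0.05. The larger count at 31 d is therefore not shown to be a larger effect for any precursor.

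Of the 108 members with a hairpin sequence, 25 of the 54 with lower GC content rose at 31 d and 27 of the 54 with higher GC content did, and all 4 falls were in the latter. Of all tested clusters 22.6% rose and 21.1% fell. The split was made on the deposited values only, and was not repeated after centring or quantile normalization. Across these precursors, which share the arrays and are no independent replicates, the correlation of GC content with the change at 31 d was r = -0.173 and rho = -0.101. The background probes of low GC content were higher with MEC1 by 0.369 at 31 d and those of high GC content by 0.114. The GC content of the probes themselves was not used here, and its part in the changes was not tested. Within the arrays, the median rank of the members was at the percentiles 63.1 to 68.4 in the 6 control mice, 65.9 to 71.3 in the MEC1 mice of 21 d and 70 to 74.2 in those of 31 d. This rank is close to what the rule used, and 22 members passed it mainly through MEC1 arrays, so it is a description only.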

How the data were processed

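Total RNA of purified bone marrow monocytes and macrophages was read on mouse Clariom D arrays, 1 per mouse. The deposited values are log2 intensities, 1 for each transcript cluster. Per the submitters' processing notes, the authors used Expression Console with RMA, and no version is given. The build behind the clusters is not given in the sources used here. Of 72688 features, 6732 controls were left out. Symbols are those of GEO's platform annotation, and places, neighbours, hosts and sequences from RefSeq (GRCm38.p6).

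The 4 groups follow the labels, where mouse numbers mark separate animals. Clusters above the array median in at least 3 arrays (37240) were fitted with limma 3.58.1 in R 4.3.3, with 4 group means, empirical Bayes and Benjamini-Hochberg over all tested clusters (threshold 0.05). Array-wide levels were compared by exact permutation tests. The fit was tested on simulated data. Members and gene lists were chosen with earlier results of these data known. Named precursors were the 12 largest changes per day and direction that passed without overlap, members of genomic clusters of 3 or more, and members of listed families. Alternatives were other filters, quantile normalization, centring on the array median, trend and robust moderation, array weights, the 6 arrays of 1 day, the hybridisation-control level as covariate, the mean of a symbol's clusters, a replicate block and leaving out each array. Host and pathway genes were refitted under the scalings, the covariate and without MEC1 31 d replicate 3 after seeing the data.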

Additional observations from a re-analysis of the deposited data

How the results depend on the processing

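Same-numbered mice are separate animals by their labels, and their deviations did not all correlate above 0.1 ( 0.363, -0.169 and 0.415 at 21 d and of -0.011, 0.16 and 0.018 at 31 d); with the replicate block 3 members rose at 21 d, and at 31 d 56 of the 64 rises and 4 of the 4 falls were kept. The count of rises at 21 d, 5 as deposited, was 1 with quantile normalization, 3 after centring and 55 with array weights. It was 2 with the 6 arrays of the day, 0 with the hybridisation-control level as covariate, and 0 to 13 when 1 array was left out. With quantile normalization and with the 6 arrays of the day, 0 of the 5 named rises were kept. The 1 fall became 3 with a filter at the 70th percentile or centring, 6 with array weights, 0 with the 6 arrays of the day or the covariate, and 0 to 2 when 1 array was left out (0 without MEC1 21 d replicates 1 or 2, and 2 without control 31 d replicate 2 or MEC1 31 d replicates 1 or 3). The 64 rises at 31 d became 32 after centring, 0 with the covariate and 39 to 71 when 1 array was left out. With no filter 67 of the 165 members rose, and 109 of all 295 precursors did. A filter at the 70th percentile left 41 of the 64 to be tested, and all 41 passed. The 4 falls became 18 after centring, 0 with the covariate and 2 to 5 when 1 array was left out (2 without control 31 d replicate 3 or MEC1 31 d replicate 3). Differences between days stayed at 0 when 1 array was left out, and were 4 with array weights. Of the covariate's variance 92.1% is between groups, and with it changes at 31 d turned to -0.49 for Mir181b-2, -0.97 for Mir193b, 0.33 for Mir24-2, 1.34 for Mir27a, -1.88 for Mir32, -0.86 for Mir376b, -0.68 for Mir450-2, -0.78 for Mir466o and -0.44 for Mirlet7i. The cause of these shifts was not tested. Probe sets near the array median limit how small a level can be told from background.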
